A study of Mus musculus with 32 samples.

Results

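Antigen processing supplies the peptides that MHC class I molecules show on the surface of a cell. The proteasome cuts proteins in the cytosol, the TAP transporter carries the fragments into the endoplasmic reticulum (ER), aminopeptidases trim them there and tapasin helps to load them. Interferon is known to exchange the 3 catalytic subunits of the proteasome for inducible ones, which gives the immunoproteasome. The genes followed here are a set of 10 components of this route, given by name. They are the inducible subunits Psmb8, Psmb9 and Psmb10, the activator subunits Psme1 and Psme2, the transporter subunits Tap1 and Tap2, tapasin (Tapbp), the ER aminopeptidase Erap1 and Nlrc5, a transactivator of the class I genes. Each of the 10 symbols matched 1 identifier in the annotation GENCODE M21 (GRCm38) and had a row among the 23035 genes of the footprint tables.

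Neural stem cells (NSCs) came from the ventricular-subventricular zone (vSVZ) of male C57BL/6 mice aged 8 to 12 weeks and were grown ex vivo with FGF and EGF. Cultures received IFN-β or vehicle, which was albumin in buffered saline, for 2 h or 14 h, and all received cycloheximide shortly before lysis. Each of the 4 groups held 4 cultures from different mice or different preparations, and each lysate gave a library of ribosome footprints, the mRNA fragments that ribosomes protect, and a library of total RNA. The cultures of the 2 times were separate sets, so that time and set cannot be told apart.

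Footprint libraries held between 2956297 and 10505108 counts, and the markers of NSCs were high in all of them, with 13900 to 17800 CPM (counts scaled to a common library size of 1e6) at 2 h and 10500 to 13300 at 14 h summed over 8 genes. The microglial genes Cx3cr1 and Aif1 were at 0 in every footprint library, which allows up to 3 counts each, and Ptprc and Tmem119 reached at most 2 and 1 counts. The 8 microglial and immune markers summed to at most 34.7 CPM with vehicle and 40.8 with IFN-β at 2 h, and to 38.4 to 42.9 and 42.5 to 46.7 at 14 h. 1 of these, P2ry12, was higher at 14 h (log2 fold change 1.62) and another, Itgam, lower (-0.75). Of the NSC markers 1 was called lower at 2 h, Nr2e1, and 4 were called lower at 14 h. At 14 h the ependymal marker Foxj1 rose by 1.24, the endothelial marker Tek by 0.84 and the neuronal marker Tubb3 by 0.23, while Stmn2, another neuronal marker, fell by 1.07. The 3 ependymal markers summed to 43.1 to 58.0 CPM with IFN-β at 14 h, above every vehicle library. Summed levels at 14 h with vehicle and with IFN-β were 7.88 to 8.85 and 9.72 to 12.6 CPM for 5 endothelial markers, 48.8 to 57.7 and 52.9 to 66.7 for 4 of neuroblasts, and 3.84 to 5.66 and 1.85 to 4.81 for 5 of the oligodendrocyte lineage, of which none was called. At 2 h none of the markers of other cell types was called. The part of such shifts in the values below was not tested, and fewer cells of a type and less RNA per cell cannot be told apart in these bulk libraries. At 2 h the cultures numbered 3 stood apart. Their deviations from the group means correlated at 0.866 across genes between the treatments, and at -0.385 or less with those of any other number.

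Promoter windows of RefSeq (GRCm38.p6, from 250 bases before to 50 after a start site) were found for 8 of the 10 genes, and were searched on both strands for the core of the interferon-stimulated response element, GAAA, any 2 bases and GAAA again, and for the STAT site TTCNNNGAA. The response element occurred in the windows of Psme1 and Erap1 and the STAT site in that of Psmb8, against 3.443% and 8.298% of all 32851 windows. The first base of the match lay 97 bases before the start in Psmb8 and 4 before it in Erap1, and was the base 10 of the transcript in Psme1. The 3 matches are shown because they are the only places in these windows where the exact letters of either motif were found. Other forms of interferon-responsive elements were not searched for. The match is in capitals on the strand of the gene, where the response element reads in reverse complement.
Psmb8: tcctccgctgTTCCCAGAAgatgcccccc
Psme1: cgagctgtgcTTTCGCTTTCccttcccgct
Erap1: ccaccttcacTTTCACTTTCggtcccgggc
These stretches lie on the plus strand at chr17:34198088-34198116, chr14:55578493-55578522 and chr13:74639839-74639868. A match says only that the letters are present. Tap1, Tapbp, Psmb9, Psmb10 and Psme2 held neither motif in their windows.

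IFN-β raised the footprints of 9 of the 10 genes within 2 h and of all 10 by 14 h. The test was edgeR's quasi-likelihood test over all genes, at an adjusted p under 0.05. Genes entered it if they reached 10 counts in 4 or more libraries. Psmb8 and Nlrc5 had at most 6 counts in any vehicle library at 14 h, and entered only through the IFN-β libraries. Their calls at 14 h could therefore go in 1 direction only. At 2 h Nlrc5 held 2 to 10 counts per vehicle library and passed mainly through the IFN-β libraries, so its call there had the same limit. When this filter was dropped, each of the 10 genes was still called higher at 14 h, and 9 at 2 h. At 2 h, 5.25% of the 12104 genes tested were called higher, and at 14 h 26.2% of 12113. The median log2 fold change of the 10 genes was 2.12 at 2 h and 4.04 at 14 h, beside medians of -0.02 and 0.0030 over all genes tested. The gene not called at 2 h was Tapbp. With the replicate number as a block, 3538 genes were called at 2 h in place of 878, and all 10 genes were among those called higher. Every IFN-β library exceeded every vehicle library in CPM for 9 of the 10 genes at 2 h and for all 10 at 14 h, an ordering that 7.77% and 22.4% of all genes showed. The study drew its interferon signature from cultures of this experiment and all 10 genes are in it, so these counts are not independent evidence of their direction. The plot of footprints by culture shows the levels, divided by the length of the coding sequence (CDS) so that genes can be compared.

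**Figure D1:**
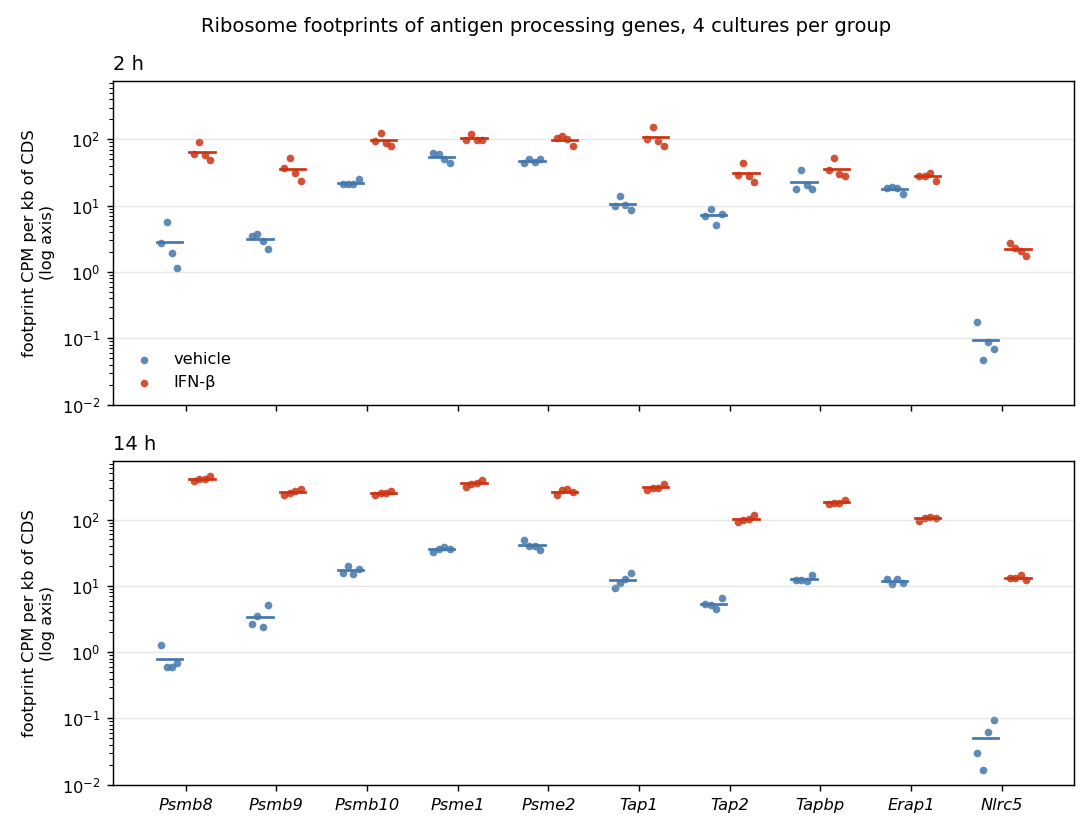
Ribosome footprints of the 10 genes in each culture, as CPM per kilobase of CDS on a log axis, at 2 h (top) and 14 h (bottom). Points are cultures and bars are means of 4. With IFN-β at 14 h the means ran from 13.4 for Nlrc5 to 413 for Psmb8, and with vehicle from 0.051 to 41.0.

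Of the inducible proteasome subunits, Psmb8 had the largest log2 fold change of the 10 genes at both times. At 2 h that of Nlrc5 was close, with 4.44 ± 0.32. Psmb8 (ENSMUSG00000024338, chromosome 17, 34197721 to 34201454, plus strand) encodes the inducible subunit with chymotrypsin-like activity. Its footprints in the vehicle cultures at 2 h were 2.23, 4.62, 1.59 and 0.965 CPM, and in the IFN-β cultures 50.4, 75.4, 48.6 and 40.3 CPM. At 14 h they were 1.08, 0.499, 0.495 and 0.570 CPM with vehicle, and 316, 338, 339 and 376 CPM with IFN-β. No vehicle culture came near an IFN-β culture at either time, and the vehicle values at 14 h rest on only 4 to 6 counts per library. The log2 fold change was 4.51 ± 0.38 (SE, n = 4 per group) at 2 h and 9.08 ± 0.13 at 14 h, with adjusted p = 7.03e-05 and 1.51e-14 in edgeR. In rank of log2 fold change Psmb8 stood at place 76 of all genes at 2 h and at place 42 at 14 h.

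Psmb9 (ENSMUSG00000096727, chromosome 17, 34181987 to 34187764, minus strand) encodes the inducible subunit that takes the place of Psmb6. Its vehicle cultures held 1.52 to 2.52 CPM at 2 h and 1.61 to 3.42 CPM at 14 h. With IFN-β they held 15.9 to 35.4 CPM at 2 h and 156 to 198 CPM at 14 h. The rise was 3.53 ± 0.28 on the log2 scale at 2 h (adjusted p = 5.23e-05, edgeR) and 6.18 ± 0.14 at 14 h (adjusted p = 7.33e-13).

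Psmb10 (ENSMUSG00000031897, chromosome 8, 105935735 to 105938444, minus strand) encodes the inducible subunit with trypsin-like activity. It was already measurable without IFN-β, with 17.3 to 20.4 CPM at 2 h and 12.4 to 16.5 CPM at 14 h. IFN-β cultures held 63.9 to 103 CPM at 2 h and 195 to 220 CPM at 14 h. Its log2 fold change was 2.13 ± 0.15 at 2 h and 3.85 ± 0.08 at 14 h, well below those of Psmb8 and Psmb9 in size, although with IFN-β at 14 h its level per kilobase of CDS (253 ± 12.2 CPM, SD, n = 4) overlapped that of Psmb9 (261 ± 25.8).

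The activator subunits started from higher levels and rose less. Psme1 and Psme2 form the ring that docks on the core particle and opens its gate, and they lie 5911 bases apart on chromosome 14. Psme1 (ENSMUSG00000022216, 55578123 to 55581529, plus strand) held 32.9 to 46.1 CPM with vehicle and 72.3 to 91.2 CPM with IFN-β at 2 h, and 24.2 to 29.2 against 232 to 295 CPM at 14 h. Its log2 fold change was 0.93 ± 0.13 at 2 h (adjusted p = 0.00206, edgeR) and 3.28 ± 0.08 at 14 h. Psme2 (ENSMUSG00000079197, 55587441 to 55591113, minus strand) held 33.0 to 37.9 CPM with vehicle and 59.6 to 83.6 CPM with IFN-β at 2 h, and 25.7 to 36.4 against 172 to 210 CPM at 14 h. Its log2 fold change was 1.05 ± 0.11 at 2 h (adjusted p = 0.000381) and 2.70 ± 0.10 at 14 h, the smallest of the 10 genes at 14 h. Their ranges per kilobase overlapped in both vehicle groups and with IFN-β at 2 h. With IFN-β at 14 h they did not, with 309 to 393 CPM for Psme1 and 232 to 284 for Psme2.

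The row of Psme2 is uncertain as a level. Of the 688 windows of 30 bases in its longest CDS, 79.1% recur without a mismatch in Psme2b, an intronless copy on chromosome 11. Psme2b had 53.1 ± 1.08 CPM with vehicle and 110 ± 12.0 with IFN-β at 2 h (SD, n = 4), and its log2 fold changes, 1.05 at 2 h and 2.69 at 14 h, lay within 0.01 of those of Psme2. Total RNA held no count for Psme2b in any of the 16 libraries. For Psme1, 33.8% of the windows recur in 2 processed pseudogenes without a row in the footprint tables. Tap1 and Tap2 shared 45 windows with each other, and the other 6 genes shared none with any transcript.

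Tap1 and Tap2 pair to form the transporter. Tap1 (ENSMUSG00000037321, chromosome 17, 34187553 to 34197225, plus strand) had 21.7, 30.2, 22.0 and 18.9 CPM in the vehicle cultures at 2 h and 217, 335, 208 and 173 CPM in the IFN-β cultures. At 14 h it had 20.1, 24.1, 27.4 and 34.0 CPM with vehicle and 602, 646, 659 and 746 CPM with IFN-β. The groups did not overlap at either time, and with IFN-β at 2 h Tap1 had the highest mean per kilobase of the 10 genes (107 ± 32.3 CPM), though its range overlapped that of Psme1, the next in order. The log2 fold change was 3.33 ± 0.23 at 2 h (adjusted p = 2.24e-05, edgeR) and 4.62 ± 0.13 at 14 h.

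Tap2 (ENSMUSG00000024339, chromosome 17, 34203527 to 34216321, plus strand) had 10.7 to 18.9 CPM with vehicle and 48.5 to 91.4 CPM with IFN-β at 2 h, and 9.54 to 13.9 against 196 to 245 CPM at 14 h. Its log2 fold change was 2.12 ± 0.22 at 2 h and 4.23 ± 0.11 at 14 h. Tap1, Psmb8, Tap2 and Psmb9 lie together within the class II region of chromosome 17, where Psmb9 and Tap1 run in opposite directions and overlap by 212 bases outside their CDS. The map of this cluster gives their order. The nearest coding genes outside the cluster, H2-Ob and H2-DMb1, had at most 0 and 3 footprint counts in any library.

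**Figure D2:**
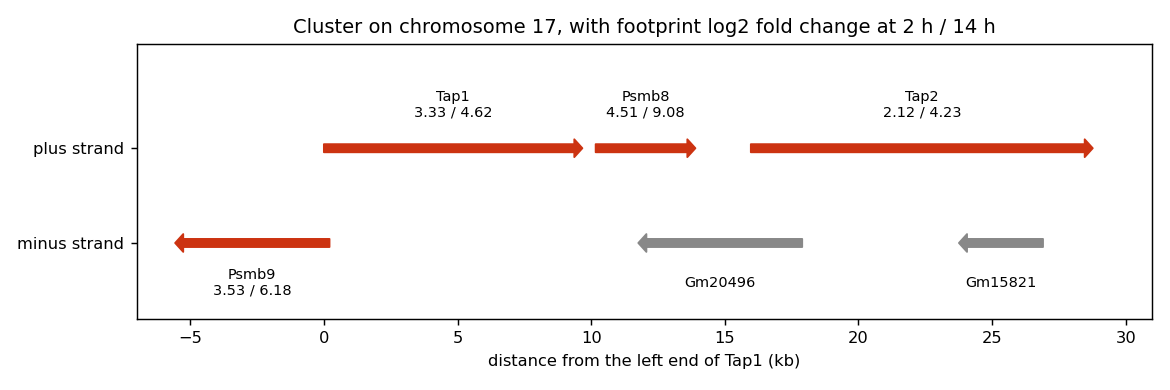
Gene bodies of the cluster on chromosome 17 along the distance from the left end of Tap1, in kilobases, with arrows in the direction of transcription and the log2 fold changes of footprints at 2 h and 14 h under each of the 4 antigen processing genes (red). Grey arrows are the noncoding genes Gm20496 and Gm15821, which lie on the minus strand over Psmb8 and Tap2.

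The change of Tapbp was small at 2 h and large at 14 h, in separate sets of cultures. Tapasin (ENSMUSG00000024308, chromosome 17, 33915899 to 33929292, plus strand) bridges the transporter and the class I molecule and edits the peptides that are bound. At 2 h its vehicle cultures had 25.5, 50.0, 29.0 and 25.6 CPM and its IFN-β cultures 49.5, 74.6, 44.0 and 40.8 CPM. The vehicle culture numbered 3 stood above 3 of the IFN-β cultures, while within each number the IFN-β culture was the higher. The log2 fold change was 0.68 ± 0.26 with adjusted p = 0.204. With the replicate number as a block it was 0.70 with adjusted p = 2.94e-08, and without the cultures numbered 3 it was 0.75 with adjusted p = 0.000306. By 14 h the vehicle cultures had 17.9, 17.4, 17.0 and 20.7 CPM and the IFN-β cultures 249, 255, 256 and 285 CPM, a log2 fold change of 3.83 ± 0.08 (adjusted p = 2.29e-13).

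Erap1 (ENSMUSG00000021583, chromosome 13, 74639568 to 74693201, plus strand) trims peptides to the length that class I molecules hold. Its change at 2 h was the smallest, close to that of Tapbp (0.68 ± 0.26). Erap1 had 42.3 to 53.3 CPM with vehicle and 64.6 to 87.4 CPM with IFN-β at 2 h. It rose by 0.64 ± 0.11 on the log2 scale (adjusted p = 0.00799, edgeR). At 14 h it had 29.7 to 35.7 against 269 to 307 CPM, a log2 fold change of 3.15 ± 0.08. Erap1 and Tapbp thus lay at places 668 and 624 in the order of all genes by log2 fold change at 2 h, and at places 185 and 165 at 14 h.

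Nlrc5 (ENSMUSG00000074151, chromosome 8, 94434356 to 94527272, plus strand) was close to silent without IFN-β. Its vehicle libraries held 10, 2, 4 and 3 footprint counts at 2 h and 1, 1, 3 and 6 at 14 h, and its IFN-β libraries 130, 67, 88 and 64 at 2 h and 239, 560, 589 and 692 at 14 h. No groups overlapped. The log2 fold change was 4.44 ± 0.32 at 2 h (adjusted p = 2.43e-05, edgeR) and 7.89 ± 0.18 at 14 h (adjusted p = 4.49e-13). Even with IFN-β at 14 h Nlrc5 had the lowest level per kilobase of the 10 genes, 13.4 ± 0.883 CPM, and its range was apart from that of Tap2, the next above (103 ± 10.0).

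**Figure D3:**
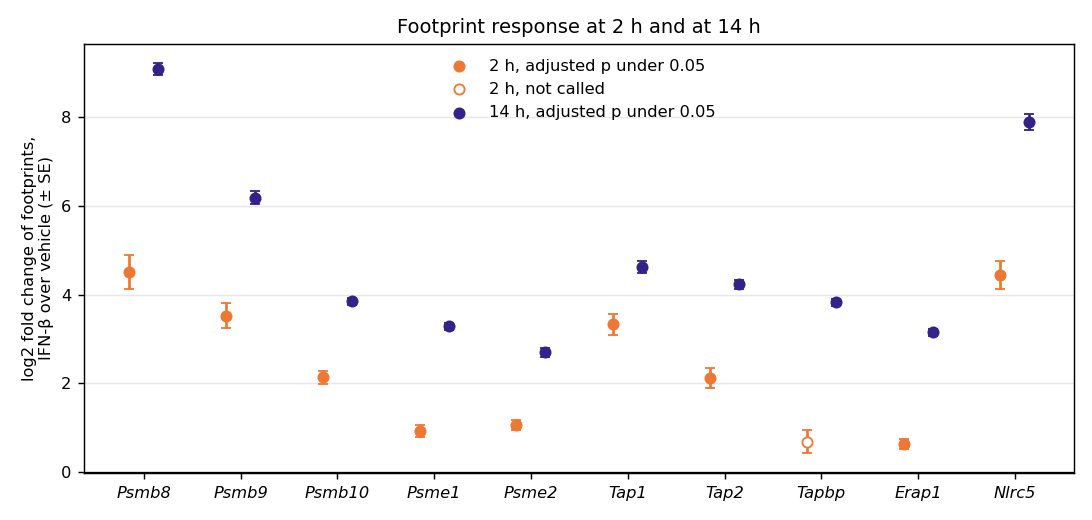
Log2 fold changes of footprints, IFN-β over vehicle, with standard errors at 2 h (orange) and 14 h (blue) for the 10 genes, from edgeR with 4 cultures per group. The open circle is Tapbp at 2 h, which was not called, and every gene stands higher at 14 h than at 2 h.

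The response was greater at 14 h than at 2 h for all 10 genes in the test of the difference itself, in which edgeR's interaction term of time with treatment was fitted over all 16 footprint libraries. Over all 12508 genes in that test, 15.4% were called greater and 15.5% smaller, and with the replicate number as a block 6944 genes were called in either direction in place of 3867 (30.9% of those tested). The difference was largest for Psmb8 (4.57 ± 0.53 on the log2 scale), followed by Nlrc5 (3.47 ± 0.55), and smallest for Tap1 (1.31 ± 0.27, adjusted p = 0.00191). It was 3.16 ± 0.29 for Tapbp and 2.52 ± 0.14 for Erap1, the genes with the smallest changes at 2 h. The remaining values were 2.68 for Psmb9, 2.36 for Psme1, 2.12 for Tap2, 1.73 for Psmb10 and 1.64 for Psme2. Vehicle levels differed between the sets as well. Psmb8 had 2.35 ± 1.60 CPM (SD, n = 4) in the 2 h set and 0.660 ± 0.280 in the 14 h set, and Tapbp 32.5 ± 11.7 and 18.3 ± 1.69, with no test between the sets.

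The share of each inducible subunit was set against the constitutive one it replaces, in footprints per kilobase of CDS, to follow the exchange of subunits at the level of synthesis. The shares of Tap1 in Tap1 plus Tap2 and of Psme1 in Psme1 plus Psme2 were taken in the same way, 5 shares at 2 times. Exact two-sided permutation tests gave p = 0.0286, the smallest that 4 against 4 cultures allow, for 9 of the 10 shares (adjusted p = 0.0318 over 10 tests), and p = 0.543 for the share of Psme1 at 2 h. Psmb8 made up 2.37% ± 1.93 (SD, n = 4) of Psmb8 plus Psmb5 with vehicle and 32.9% ± 7.16 with IFN-β at 2 h. At 14 h its share was 0.541% ± 0.195 with vehicle and 72.9% ± 2.08 with IFN-β, so that Psmb8 then outweighed Psmb5. Psmb9 rose from 0.920% ± 0.242 of Psmb9 plus Psmb6 to 9.73% ± 3.36 at 2 h, and from 0.981% ± 0.308 to 40.2% ± 1.58 at 14 h. Psmb10 rose from 6.34% ± 0.618 of Psmb10 plus Psmb7 to 22.2% ± 3.94 at 2 h, and from 4.64% ± 0.506 to 39.4% ± 0.617 at 14 h. The 3 subunits thus reached different shares, and the ranges of Psmb9 (38.8% to 42.1%) and Psmb10 (38.7% to 40.2%) overlapped at 14 h while that of Psmb8 (70.1% to 75.2%) stood above both. The constitutive subunits themselves changed little. Psmb5, Psmb6 and Psmb7 had log2 fold changes of 0.07, -0.0020 and 0.05 at 2 h and of 0.07, 0.17 and 0.12 at 14 h, and of these values that of Psmb6 at 14 h was called (adjusted p = 0.0336, edgeR).

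The next shares are again of footprints per kilobase of CDS, and not of protein. Tap1 made up 60.0% ± 5.32 of Tap1 plus Tap2 with vehicle at 2 h and 77.6% ± 0.369 with IFN-β. At 14 h its share was 68.9% ± 4.32 against 74.8% ± 0.234. Psme1 made up 52.9% ± 4.77 of Psme1 plus Psme2 with vehicle at 2 h against 51.0% ± 2.70 with IFN-β. At 14 h its share was 46.9% ± 5.02 against 57.2% ± 2.19. With Psme2b added to Psme2, the share of Psme1 was 26.3% ± 1.97 with vehicle and 35.1% ± 1.34 with IFN-β at 14 h. Over 4 pairs of cultures with the same number, an exact sign-flip test cannot go below p = 0.125.

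**Figure D4:**
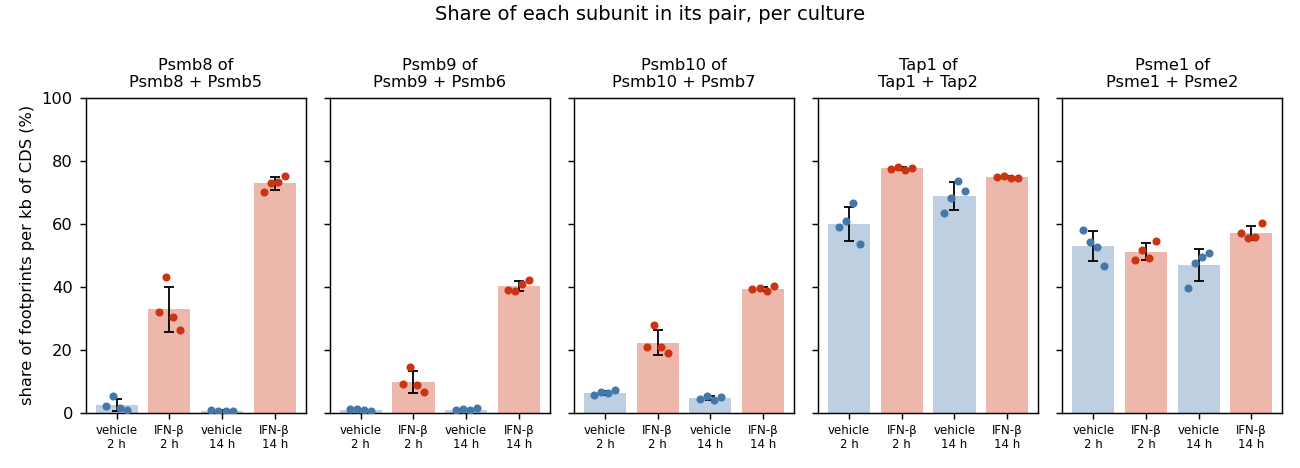
Share of each first-named subunit in its pair, in percent of footprints per kilobase of CDS, for vehicle (blue) and IFN-β (red) cultures at 2 h and 14 h. Points are cultures, bars are means and error bars are SDs of 4 cultures. The share of Psmb8 with IFN-β was 32.9% at 2 h and 72.9% at 14 h. That of Psme1 lay between 39.6% and 60.3% in all cultures.

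Other parts of the proteasome moved little beside these genes. Of 11 subunits of the core particle that have no inducible form, none was called at 2 h, and at 14 h 6 were higher and none lower. Their median was 0.19 on the log2 scale and the highest value 0.32 (Psmb2, adjusted p = 0.00031 in edgeR). Psmb4, Psma4 and Psma5 were next, with 0.30, 0.28 and 0.24. Of 11 constitutive counterparts, alternative activators and assembly factors, none was called at 2 h, 3 were higher and 3 lower at 14 h. Psmf1, an inhibitor of the proteasome, was higher by 0.39 and Psme4, a nuclear activator, by 0.26. The assembly chaperone Psmg2 fell by 0.39 on the log2 scale, the nuclear activator Psme3 by 0.35 and Psmg1 by 0.28. Over all genes, 52.5% were called in either direction at 14 h and 7.25% at 2 h, and 26.2% were called higher at 14 h.

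Among 9 genes of peptide loading and quality control, 2 were called higher at 2 h and 8 at 14 h, where 5.25% and 26.2% of all genes were. Tapbpl, a homologue of tapasin that also edits peptides, rose by 2.16 at 2 h and 3.45 at 14 h on the log2 scale. B2m, the light chain of class I molecules, rose by 1.43 at 2 h and 4.50 at 14 h. The heavy chains H2-K1 and H2-D1, whose rows can share reads with other class I genes, were not called at 2 h, with log2 fold changes of 0.19 (adjusted p = 0.599, edgeR) and 0.69 (adjusted p = 0.14), and rose by 4.95 and 5.82 at 14 h. The chaperones Calr, Pdia3, Hspa5 and Uggt1 rose by 0.65, 0.47, 0.38 and 0.15 at 14 h, and Canx was not called.

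Of 7 cytosolic and ER peptidases other than Erap1, 1 was called higher at 2 h, and 2 were higher and 3 lower at 14 h. Over all genes, 7.25% were called in either direction at 2 h and 52.5% at 14 h. The leucine aminopeptidase Lap3 was higher at both times, by 0.56 and 0.37 on the log2 scale, and Nrdc, a metallopeptidase matched through its older symbol Nrd1, was higher by 0.22 at 14 h. Thop1, which degrades peptides in the cytosol, fell by 0.42 at 14 h, Npepps by 0.23 and Tpp2 by 0.16. None of these changes approached that of Erap1 at 14 h in size.

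Nlrc5 has no DNA-binding domain of its own for the class I promoters and acts with the RFX and NF-Y factors, while IRF factors act upstream of it. Irf1 rose by 3.59 at 2 h and 2.78 at 14 h on the log2 scale and Irf2 by 1.47 and 0.74. The response of Irf1 was lower at 14 h than at 2 h, with a log2 difference of -0.81 ± 0.16 (adjusted p = 0.00107, edgeR's interaction), whereas that of each of the 10 antigen processing genes was greater. Rfx5 and Rfxank, called at 14 h only, were higher by 0.70 and 0.33, while Nfya fell by 0.49 and Nfyb by 0.41 on the log2 scale. Ciita, the homologue of Nlrc5 for class II genes, had at most 2 counts in any footprint library.

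Genes of class II presentation were near absent from the footprints. Of 10 such genes, 2 passed the filter on low counts, H2-Ab1 and H2-DMa, with at most 25 and 38 footprint counts in a library, and neither was called at either time. Cd74, the invariant chain, had at most 1 footprint count, and H2-Oa and H2-Ob, of which the latter is the next coding gene to the right of Tap2, were at 0 in every footprint library.

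The nearest coding genes on either side of the other members included Daxx, a nuclear chaperone whose gene ends 308 bases from Tapbp. It rose by 1.38 at 2 h and 1.60 at 14 h. In the fit without a block, Daxx was called at 2 h and Tapbp was not. With the replicate number as a block, Tapbp was called at 2 h. Rnf31, a ubiquitin ligase gene 594 bases from Psme2, rose by 1.92 and 1.73. Lcat beside Psmb10, Emc9 between Psme1 and Psme2, and Cpne2 beside Nlrc5 were called only at 14 h, with 1.26, 0.65 and 0.19. Zbtb22, Herpud1, Cast and Zfp825 were called at neither time. Ctrl and Fitm1 had at most 4 and 1 footprint counts in a library.

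The genes whose log2 CPM over the 16 footprint libraries ran most like that of each member were found among 9935 other genes that averaged 50 counts or more at both times. These correlations are a description, since the libraries share treatment and depth. Tapbp was nearest to H2-D1 (Pearson r = 0.991) and then to B2m, and Erap1 and Psme1 were both nearest to Lgals3bp (0.987 and 0.994). Tap2 and Psmb10 were both nearest to Adar (0.994 and 0.998). The nearest gene was Ogfr for Tap1 (0.994), Etnk1 for Psmb9 (0.997), Oasl2 for Psmb8 (0.993), Nmi for Psme2 (0.992) and Gbp3 for Nlrc5 (0.996).

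In the deposited counts total RNA gave a different picture, and in it the rows of the members and of genes on the other strand have to be read together. These libraries held 1370008 to 7877753 counts, were made with a kit that keeps the strand, and were counted over the whole gene body, and the strand setting of the counting is not given in the sources used here. It is therefore not known whether a row holds RNA of the gene it names or RNA of the opposite strand, and each value below is that of a row. Rows at odds with the footprints were not confined to the members. With vehicle at 2 h, Vim held 21 to 82 total RNA counts per library beside 35558 to 47807 footprint counts. Cx3cr1 held 752 to 2725 total RNA counts beside 0 footprint counts. The cause was not tested. Of the 10 genes, 7 passed the filter on low counts at each time. The rows of Tap1 and Psmb9 were called higher at 2 h, where 0.722% of 11639 genes were, and those of Tap1, Tap2 and Psmb9 at 14 h, where 3.47% of 7520 were. In either direction 0.799% and 6.3% of the genes were called. The row of Tap1 rose by 4.05 ± 0.40 at 2 h and 4.91 ± 0.31 at 14 h on the log2 scale, and that of Psmb9 by 2.57 ± 0.32 and 4.04 ± 0.25. The row of Tap2 had a log2 fold change of 2.12 at 2 h (adjusted p = 0.113, edgeR) and rose by 4.31 at 14 h. That row held 2 to 5 counts per vehicle library at 2 h and 0 to 1 at 14 h. It passed the filter only through the IFN-β libraries, so its call could go in 1 direction only. The row of Tap1, with 1 to 11 counts per vehicle library at both times, passed mainly through them. The rows of Tapbp, Psmb10, Erap1 and Nlrc5, genes all called in footprints at 14 h, had log2 fold changes of 0.37, 0.20, -0.08 and 0.30 in total RNA, with adjusted p of 0.327 or more. The paper drew its signature from RNA libraries of the long exposure, mapped and counted anew with STAR, as genes with increased expression. All 10 genes are in that signature, so these flat rows do not show that their RNA was unchanged. Of simulated total RNA genes changed by 1 on the log2 scale, 6.32% were recovered at 2 h and 31.9% at 14 h. What made the rows flat was not tested.

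Psmb8 shows the contrast most clearly. Its own row held 1, 0, 0 and 1 total RNA counts with vehicle and 11, 5, 2 and 0 with IFN-β at 2 h, and 0 in all 4 vehicle libraries against 9, 2, 16 and 6 with IFN-β at 14 h. Against a floor of 3 counts over the vehicle group, the rise at 14 h was at least 8.05-fold. Gm20496 is annotated as antisense to Psmb8, with 498 bases of shared exons, and also overlaps Tap2. It held 125, 186, 86 and 108 counts with vehicle and 2382, 2786, 1887 and 1452 with IFN-β at 2 h. At 14 h it held 48, 24, 15 and 30 counts with vehicle and 10495, 11565, 11640 and 7122 with IFN-β, and it rose by 7.92 on the log2 scale (adjusted p = 1.27e-10, edgeR). The footprints of Psmb8, which has no such partner in the footprint tables, changed by 9.08.

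Other members showed such pairs as well. Gm15821, on the other strand within Tap2, held 154 to 309 counts with vehicle against 1301 to 1725 with IFN-β at 2 h and rose by 4.61 at 14 h, when the row of Tap2 held 0 to 1 and 10 to 24 counts. Gm16156, which spans Psmb10 on the other strand without sharing exons, held 1170 to 4793 counts with vehicle against 12876 to 18244 with IFN-β at 14 h, a rise of 1.97, while the row of Psmb10 held 12 to 34 and 37 to 44. Emc9 overlaps the end of Psme1 by 14 bases and rose by 3.25 in total RNA at 14 h but by 0.65 in footprints, while the row of Psme1 went from 0 to 3 counts with vehicle to 6 to 9 with IFN-β. The row 9330175E14Rik, opposite the start of Nlrc5, held 0 to 1 counts with vehicle against 7 to 20 with IFN-β at 2 h.

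Psme2, which has no annotated gene on the other strand, held 0 to 2 total RNA counts with vehicle against 0 to 8 with IFN-β at 2 h and at most 2 in any library at 14 h, beside 511 to 1785 footprint counts with IFN-β at that time. Psmb9 and Tap1, the only 2 members that overlap each other on opposite strands, were the ones called in total RNA at both times. The row of Tapbp was well filled, with 88 to 303 counts with vehicle against 362 to 433 with IFN-β at 14 h, and it was not called.

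**Figure D5:**
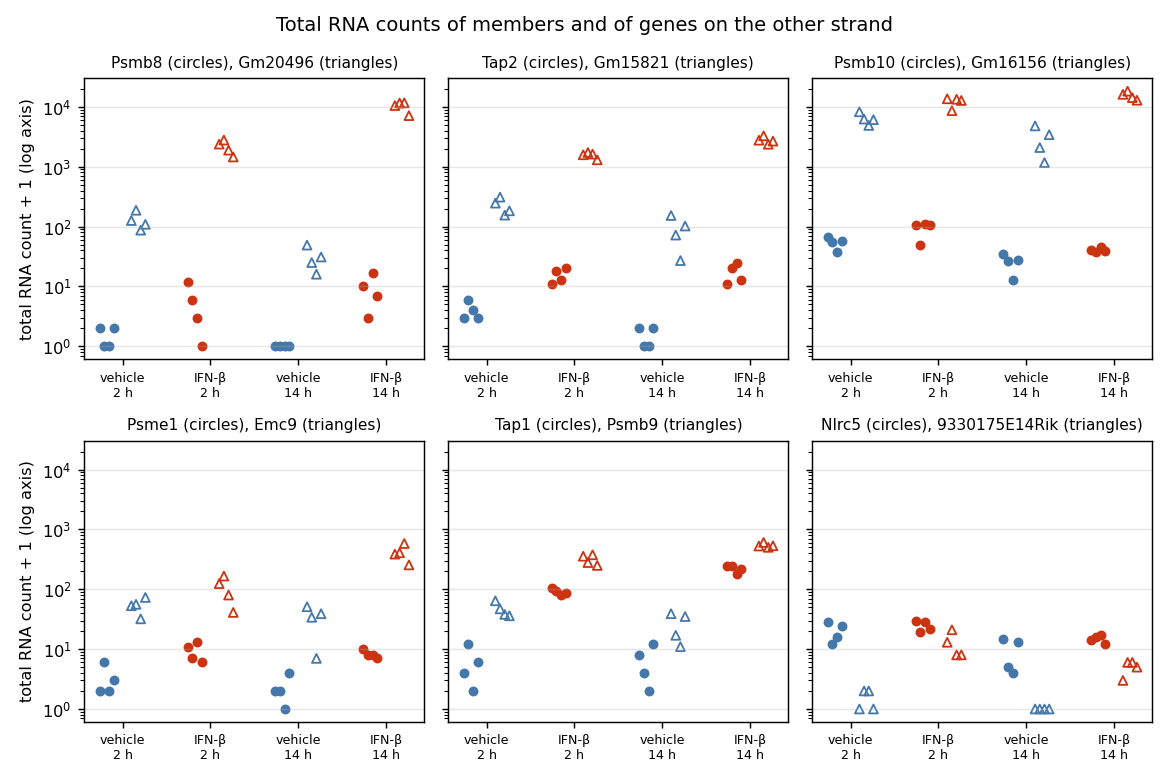
Total RNA counts plus 1 on a log axis for 6 members (circles) and a gene on the other strand of each (open triangles), for vehicle (blue) and IFN-β (red) libraries at 2 h and 14 h. Each symbol is 1 library. With IFN-β at 14 h the row of Psmb8 held 2 to 16 counts and that of Gm20496 7122 to 11640.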

How the data were processed

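The authors trimmed reads with Trim Galore 0.4.4, mapped them with Bowtie 0.12.7 to the mm10 (GRCm38) transcriptome, discarded duplicate reads and assigned the rest to genes by SummarizeOverlaps (Union). The deposited values are raw counts per gene, in the CDS for footprints and over the gene body for total RNA, in 4 tables of 32 libraries. The strand setting is not given in the sources used here.

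Genes that reached 10 counts in 4 or more libraries of a comparison entered edgeR 4.0.16 (R 4.3.3) with TMM scaling, the two-sided quasi-likelihood test and Benjamini-Hochberg adjustment over all genes tested. limma 3.58.1 and DESeq2 1.42.0 served as alternatives. CPM of footprints were scaled over all 16 libraries, and those of total RNA within each table. CDS lengths are unions of coding exons. Intervals and floors cover counting error only. On simulated counts of the footprint tables, 74.7% of genes changed by 1 on the log2 scale were recovered at 2 h and 96.9% at 14 h. For total RNA these values were 6.32% and 31.9%, so a gene not called there may still have changed.

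Samples with the same number paired in footprints, with deviations from the group means that correlated at 0.264 to 0.866. No 2 libraries of a group agreed within sampling noise (chi-square of at least 2.51 per degree of freedom). The 10 genes and the lists were chosen with earlier results of these data known. Named besides them are genes that overlap or neighbour them, the constitutive subunits, the called genes of each list with the largest change at 14 h, up to 4, and the gene most correlated with each. Further list genes were named after their values were seen. Some genes of the lists are not reported here.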

Additional observations from a re-analysis of the deposited data

Results flagged for a closer look

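The response to IFN-β differed between the times for all 10 genes by the interaction in edgeR. The log2 difference, 14 h minus 2 h, was 1.31 for Tap1, 2.12 for Tap2, 3.16 for Tapbp, 4.57 for Psmb8, 2.68 for Psmb9, 1.73 for Psmb10, 2.36 for Psme1, 1.64 for Psme2, 2.52 for Erap1 and 3.47 for Nlrc5. Over all genes 15.4% were called greater at 14 h in this test, and the times are separate sets of cultures.

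In 8 of 100 groups of 4 libraries, 1 library lay far from the other 3, where chance gives about 1 in 20 groups. Tapbp footprints were 50.0 CPM in the vehicle culture numbered 3 at 2 h against 25.5 to 29.0 in the others, and Psme1 footprints 91.2 CPM in the IFN-β culture numbered 3 against 72.3 to 73.4. Psmb10 footprints were 20.4 CPM in the vehicle culture numbered 6 at 2 h against 17.3 to 17.4. Psmb8 footprints were 1.08 CPM in the vehicle culture numbered 1 at 14 h against 0.495 to 0.570, on 6 counts or fewer in each library, and the share of Psmb8 in Psmb8 plus Psmb5 was 0.831% there against 0.422% to 0.479%. In total RNA, Tapbp had 206 CPM in the IFN-β culture numbered 6 at 2 h against 166 to 173. Psme1 had 0.844 CPM in the vehicle culture numbered 3 against 0.222 to 0.317. Nlrc5 had 4.81 CPM in the IFN-β culture numbered 1 at 14 h against 5.38 to 5.42.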

How the results depend on the processing

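No footprint call of the 10 genes was lost under another scaling, filter, tool, left-out library or replicate block, as far as the gene was tested. Psmb8 and Nlrc5 missed the filter on low counts at 14 h when an IFN-β library was left out, which left 8 of 8 called, and with 10 counts in at least 3 libraries 10 of 10 were called. Tapbp at 2 h, the gene not called there, was called with the replicate block, without the vehicle culture numbered 3 (log2 fold change 0.97, adjusted p = 0.0184) and without both cultures numbered 3, and its log2 fold change ran from 0.47 to 0.97 over all alternatives. The added alternatives, chosen after seeing the data, were the removal of both cultures numbered 3, the filter over 3 libraries and the addition of Psme2b.

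The number of genes called at 2 h in footprints was 878, 3538 with the replicate block, 1671 without both cultures numbered 3, and 517 to 953 with 1 library left out, the lowest without the IFN-β culture numbered 5, with 563 and 575 without those numbered 2 and 6. The replicate block gave 6944 calls for the difference between times in place of 3867. Calls in total RNA at 2 h numbered 93, 174 with no filter, 44 with a mean of at least 50 counts (1 of the 10 genes higher), 169 by DESeq2 and 30 to 74 with 1 library left out, with 57 without the vehicle culture numbered 5 and 30, 33 and 40 without the IFN-β cultures numbered 2, 5 and 6. At 14 h they numbered 474, 269 with total counts alone, 247 with a mean of at least 50 counts and 171 to 450 with 1 library left out, with 171, 213, 271 and 265 without the IFN-β cultures numbered 1, 2, 3 and 4. That scaling shifted the all-gene median log2 fold change of total RNA from 0.04 to 0.23 at 2 h. In total RNA, values that were not called changed sign for Nlrc5 at 2 h without the vehicle culture numbered 3 (-0.14, and up to 0.37 without another library) and for Erap1 at 14 h with total counts alone (0.0088) and without the IFN-β culture numbered 1 (0.11, and down to -0.19 without another library). DESeq2 called Tap2 in total RNA at 2 h (2.14, adjusted p = 0.0444). The cause was not tested. The numbers do not pair the total RNA libraries, where same-numbered samples correlated at -0.658 to 0.533. For the shares the replicate block left the differences as they were, 30.5, 8.81, 15.9 and 17.6 percentage points at 2 h and 72.4, 39.2, 34.8, 5.98 and 10.3 at 14 h, and with 4 pairs an exact sign-flip test cannot go below p = 0.125.

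Low counts limit the vehicle levels of Psmb8 and Nlrc5, and so the size of their fold changes.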
